A study of Mus musculus with 24 samples.

Results

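RNA recovered with polysomes, that is, messenger RNA carrying several ribosomes, was compared between the light and the dark phase of the day in the liver of calorie-restricted (CR) mice. The light phase was made up of the 6 CR libraries of zeitgeber times (ZT) 2, 6 and 10 h and the dark phase of the 6 CR libraries of ZT14, ZT18 and ZT22, with 2 libraries per time point. Libraries were chosen by their labels of diet and time point alone, which took 12 of the 24 libraries of the series, and all genes were tested. The mice were of strain C57BL/6 and 5 months old, and restriction to 30% fewer calories had started at 2 months of age and gone on for 3 months. The other 12 libraries, from mice fed ad libitum (AL) and taken at the same 6 times, enter 1 comparison at the end. The labels do not say that the 2 libraries of a time point come from separate animals, so the spread that p-values measure here is one between libraries and may be technical. Neither the light schedule nor the hours of feeding are given in the sources used here, and zeitgeber time counts hours from lights on by convention. Total RNA is not analysed here, so the amount of a transcript and its loading onto polysomes cannot be told apart.

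The circadian clock of a cell is a feedback loop in which the activators Arntl and Clock switch on the genes of their own repressors, the Period and Cryptochrome proteins and the REV-ERB receptors Nr1d1 and Nr1d2, through promoter sequences called E-boxes. The REV-ERB receptors in turn repress genes with ROR elements, among them Arntl and Nfil3, and output factors such as Dbp and Nfil3 compete at D-boxes of further genes. In liver, the daily cycle of feeding and fasting, body temperature and glucocorticoids acts beside the clock, and genes of heat shock proteins and of ribosomal proteins are known to follow such daily signals.

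The CR libraries held 16.5 to 51.0 M counted reads in light (median 24.5 M) and 28.5 to 60.8 M in dark (median 34.3 M). Ribosomal RNA features held 2.42% to 62.1% of the reads in light (median 50.6%) and 1.90% to 43.8% in dark (median 22.6%), and the 3 lowest shares were those of ZT10 replicate 1, ZT18 replicate 2 and ZT22 replicate 1. Across genes, the counts of both libraries of an hour correlated with a Spearman's rho of 0.914 (ZT10) to 0.973 (ZT2), and all 6 pairs differed by more than counting error. Hepatocyte markers summed to 55120 to 70010 CPM (counts scaled to a common library size) in light and 44000 to 93760 CPM in dark. Markers of Kupffer cells, endothelial cells, stellate cells and fibroblasts, cholangiocytes, lymphocytes, neutrophils and erythroid cells had no member called between the phases, and their sums overlapped between light and dark. Only 0.265% of all genes were called, so this does not show equal cell content. At an unadjusted p under 0.05, 4 of 18 endothelial markers were higher in light and 2 in dark. Of 18 stellate cell and fibroblast markers these were 4 and 1, and the other lists had at most 1 in each direction. Over all genes 19.2% had such a p. In bulk liver, fewer cells of a type and less RNA per cell cannot be told apart.

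Of the 52636 genes in the files, 14737 passed the filter on low counts, and 39 of these (0.265%) differed between light and dark in the CR libraries by edgeR's quasi-likelihood test at a Benjamini-Hochberg adjusted p under 0.05. Of the 39, 12 (0.0814% of those tested) were higher in light, among them the clock repressors Nr1d1 and Nr1d2 and the clock output factor Dbp. The remaining 27 (0.183%) were higher in dark, among them the clock repressor Cry1, the output factor Nfil3, and the heat shock genes Hspb1 and Stip1. The difference was at least 2-fold for 37 of the 39. Over all genes tested the median log2 difference, light minus dark, was 0.003, and at an unadjusted p under 0.05 there were 1513 genes higher in light and 1320 higher in dark. The test sets the mean of 3 time points against that of the other 3 and takes its error from the spread between the 2 libraries of a time point. With the libraries as plain replicates of a phase, so that differences among hours of one phase count as error, edgeR called 0 genes, with 2136 at an unadjusted p under 0.05, and with the counts summed per time point it called 0, with 1129 at an unadjusted p under 0.05.

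Of the 12 genes higher in light, 8 had their highest mean at ZT10, 3 at ZT2 and 1 at ZT6, and their lowest was at ZT18 for 8 and at ZT14 for 4. Of the 27 genes higher in dark, 13 were highest at ZT18, 12 at ZT14 and 2 at ZT22, and 15 were lowest at ZT10. A highest mean within the phase of the call follows largely from the choice of genes. Over all genes tested, ZT10 was highest for 16.7%, ZT14 for 20.2% and ZT18 for 17.7%. The plot of called genes by library shows the hours of the called genes.

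**Figure D1:**
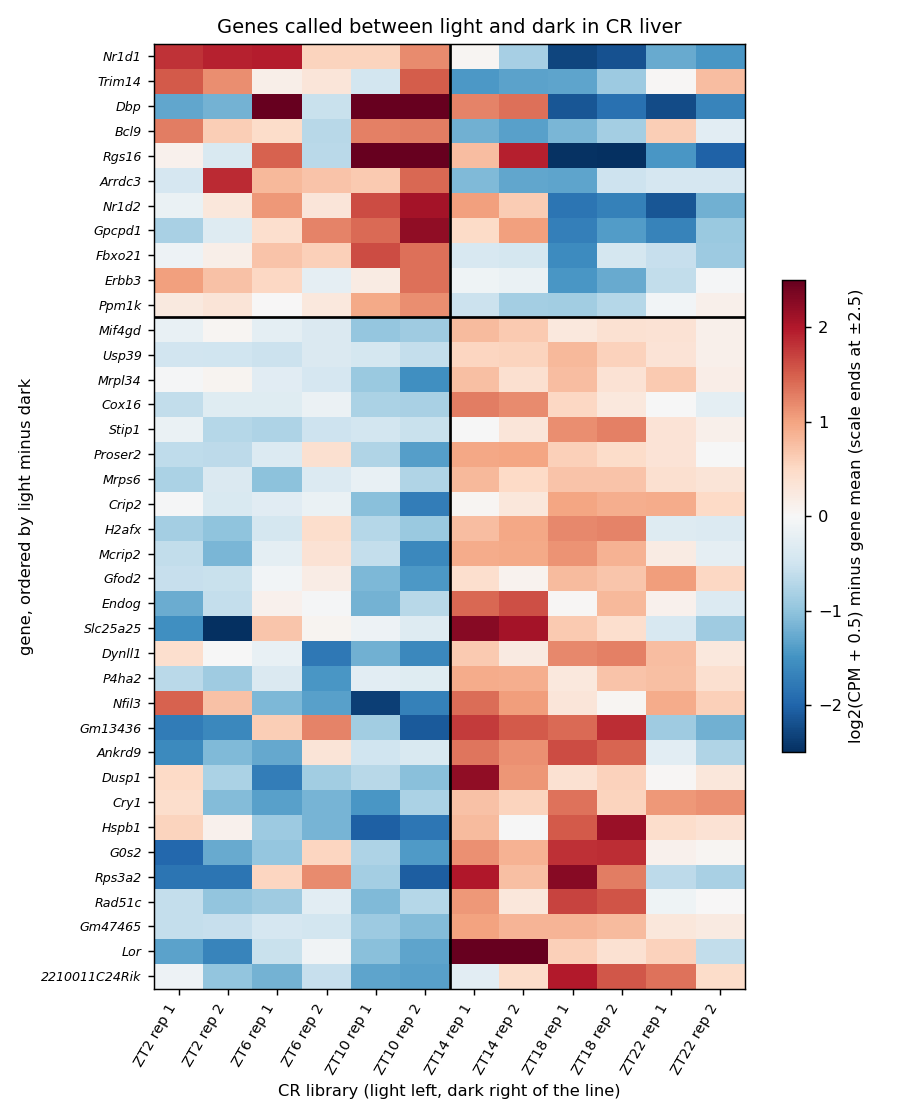
Relative level, log2(CPM + 0.5) minus the gene's mean, of 38 of the 39 genes called between light and dark (rows, ordered by the difference) in the 12 CR libraries (columns, in order of zeitgeber time). Red is above and blue below the gene's mean; the 11 genes above the horizontal line were higher in light, 8 of them highest at ZT10, and the 27 below it higher in dark, 25 of them highest at ZT14 or ZT18.

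In 12 of the 39 genes the 6 light and the 6 dark libraries did not overlap, and in the whole table this was so for 36 genes with light above (0.244%) and 58 with dark above (0.394%). Leaving out 1 library changed many calls, though none of the 39 changed sign in any alternative. Nr1d1, Hspb1 and Lor stayed called in 12 of 12 such fits. Nr1d2 and the unnamed gene 2210011C24Rik stayed called in 9, G0s2, Nfil3 and Cry1 in 8, Fbxo21 and Rgs16 in 7, and the other 29 in 2 to 5. Of the 39 genes, 3 stayed called without ZT14 replicate 2, 3 without ZT18 replicate 1, 4 without ZT14 replicate 1, 6 without ZT2 replicate 2, 9 without ZT18 replicate 2, 9 without ZT22 replicate 1, 10 without ZT2 replicate 1, 24 without ZT6 replicate 1, 26 without ZT6 replicate 2 and 35 without ZT22 replicate 2. Each of these fits leaves 1 library at the hour concerned. With either library of ZT10 left out, more genes were called over all than in the main fit, so calls kept there do not show stability.

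The largest difference of the 39 was that of a clock repressor. Nr1d1 (ENSMUSG00000020889.11, GRCm38 chr11:98767932-98775333, minus strand), which encodes the receptor REV-ERBα, was found at 4.29, 8.85 and 12.1 CPM in light (lowest, median, highest of 6) and at 0.161, 0.772 and 2.88 CPM in dark. Every light library stood above every dark one. The difference was 3.55 ± 0.34 log2 units (± SE, edgeR adjusted p = 0.00111), and the level was highest at ZT2, with 10.8 and 11.8 CPM, and lowest at ZT18, with 0.161 and 0.215 CPM. Its paralog Nr1d2 (REV-ERBβ) lay at 14.4, 27.4 and 69.6 CPM in light and 3.30, 5.70 and 33.2 CPM in dark, a difference of 1.82 ± 0.24 (edgeR adjusted p = 0.0111). Its groups overlapped because the ZT14 libraries, with 33.2 and 25.2 CPM, reached the light range, and its highest level came later than that of Nr1d1, at ZT10.

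Cry1 (ENSMUSG00000020038.10, chr10:85131700-85185064, minus strand), a repressor of the Arntl and Clock pair, ran the other way. It lay at 4.68, 5.98 and 18.8 CPM in light and at 20.2, 26.1 and 35.5 CPM in dark. No library of one phase reached the other, although ZT2 replicate 1, at 18.8 CPM, stood apart from the other 5 light libraries, which held at most 7.62 CPM. The difference was -1.82 ± 0.28 log2 units (edgeR adjusted p = 0.0244).

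The remaining clock repressors did not pass the test between the phases, and the hour of their highest mean, taken here and below over log2 CPM, differed from that of Nr1d1. Per1, Per2 and Per3, the Period repressors, and Ciart, another repressor, had their highest means at ZT10. Ciart was found at 0.312, 3.85 and 17.8 CPM in light and 0.207, 2.04 and 4.82 CPM in dark. Its light libraries were far apart, from 0.312 and 0.386 CPM at ZT2 to 17.8 and 9.12 CPM at ZT10, and its difference between phases was 0.86 ± 0.32 (edgeR adjusted p = 0.177). Against the 311 genes (2.11%) that differed among the 6 time points in edgeR's F-test, 7 of the 10 repressors did so, Per1, Per2, Per3, Cry1, Nr1d1, Nr1d2 and Ciart. Cry2, Bhlhe40 and Bhlhe41 did not. The median over the 10 repressors was 0.67, and without ZT10 it was -0.23.

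Among the 5 activators none was called between the phases, and 2 differed among time points, beside 0.265% and 2.11% of all genes. Arntl, also called Bmal1, lay at 0.0273, 3.81 and 15.0 CPM in light and 1.37, 6.65 and 9.82 CPM in dark, a difference of -1.20 ± 0.42 (edgeR adjusted p = 0.162; among time points 0.0180). Its course ran opposite to that of Ciart, with 12 and 15.0 CPM at ZT2 and 0.0273 and 0.444 CPM at ZT10. Npas2, a paralog of Clock, was listed at 0 CPM in both ZT14 libraries and reached 5.51 and 4.84 CPM at ZT22 (edgeR adjusted p among time points 0.000661). Clock and Rora passed neither test.

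**Figure D2:**
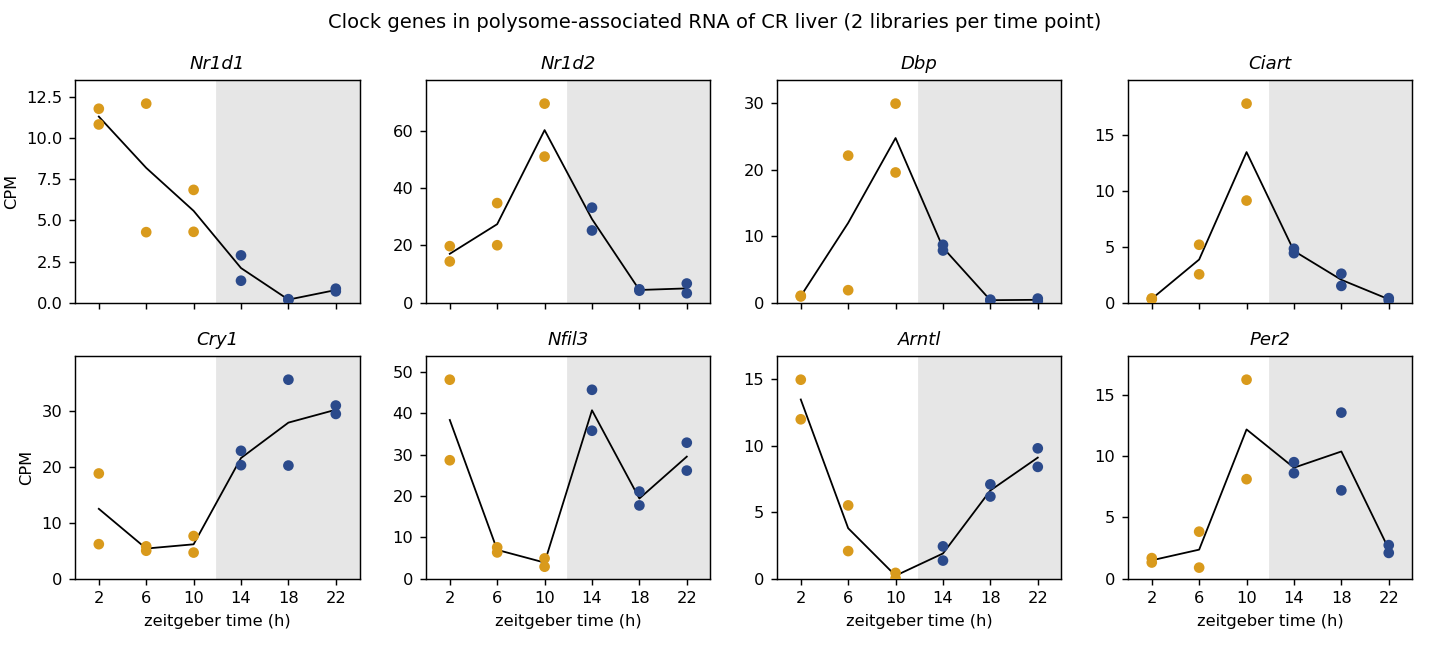
CPM (vertical axis, from 0) of 8 clock genes against zeitgeber time in hours, with 1 point per CR library (gold, light; blue, dark; dark phase shaded) and a line through the means of 2 libraries. Nr1d1 is highest at ZT2, Nr1d2, Dbp, Ciart and Per2 have their highest mean at ZT10, and Cry1 and Nfil3 are higher in dark on average.

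Of the 9 clock output factors, 1 was higher in light, 1 higher in dark and 5 differed among time points. Of all genes, 0.265% were called between the phases and 2.11% among time points. Dbp, an activator at D-boxes, lay at 0.935, 10.7 and 29.9 CPM in light and 0.252, 0.544 and 8.71 CPM in dark, a difference of 2.59 ± 0.48 (edgeR adjusted p = 0.0470). Its light libraries were far apart, with 0.935 and 1.05 CPM at ZT2 and 19.6 and 29.9 CPM at ZT10, and the 2 libraries of ZT6 gave 22.1 and 1.88 CPM. Nfil3, a repressor at the same D-boxes, lay at 2.92, 6.98 and 48.1 CPM in light and 17.7, 29.5 and 45.7 CPM in dark, a difference of -1.50 ± 0.21 (edgeR adjusted p = 0.0186). Its overlap came from ZT2, where it stood at 48.1 and 28.6 CPM, while ZT6 and ZT10 held 2.92 to 7.59 CPM. Tef, a relative of Dbp, and Usp2, a ubiquitin protease, both had their highest mean at ZT10, and Tsc22d3, a glucocorticoid-induced regulator, had it at ZT14. These 3 differed among time points and not between the phases, and Hlf, Klf10, Klf15 and Wee1 passed neither test.

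Promoters of called genes were read for 5 motifs of daily control, in the 250 bases before the start of each gene in the RefSeq table (GRCm38.p6) and on both strands. These were the E-box CACGTG, the D-box TTATGTAA or TTACGTAA, the ROR element ANTAGGTCA, the CRE TGACGTCA, and the heat shock element GAANNTTC, where N is any base. The 4 promoters below are shown because their genes were higher in dark and each holds a motif of its known regulators, in capitals and running 5′ to 3′ on the strand of the gene. Cry1 (chr10:85185055-85185304, minus strand) holds an E-box, Nfil3 (chr13:52981040-52981289, minus strand) a ROR element read on the opposite strand, Hspb1 (chr5:135887669-135887918, plus strand) 2 heat shock elements, and Dusp1 (chr17:26508473-26508722, minus strand) a CRE followed by an E-box.
Cry1: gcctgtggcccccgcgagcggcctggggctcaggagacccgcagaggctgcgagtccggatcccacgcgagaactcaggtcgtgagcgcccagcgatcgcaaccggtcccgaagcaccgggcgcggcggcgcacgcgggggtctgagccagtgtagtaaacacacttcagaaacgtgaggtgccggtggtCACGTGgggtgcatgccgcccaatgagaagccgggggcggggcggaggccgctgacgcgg
Nfil3: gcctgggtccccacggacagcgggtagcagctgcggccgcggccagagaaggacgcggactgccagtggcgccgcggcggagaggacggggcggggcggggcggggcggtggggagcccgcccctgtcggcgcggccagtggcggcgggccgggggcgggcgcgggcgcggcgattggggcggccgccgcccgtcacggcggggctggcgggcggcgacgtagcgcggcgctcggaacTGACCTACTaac
Hspb1: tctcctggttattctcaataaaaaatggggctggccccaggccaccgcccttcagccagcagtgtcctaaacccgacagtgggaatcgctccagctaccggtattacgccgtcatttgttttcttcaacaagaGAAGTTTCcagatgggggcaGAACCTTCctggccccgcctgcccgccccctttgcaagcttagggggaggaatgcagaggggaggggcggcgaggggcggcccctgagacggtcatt
Dusp1: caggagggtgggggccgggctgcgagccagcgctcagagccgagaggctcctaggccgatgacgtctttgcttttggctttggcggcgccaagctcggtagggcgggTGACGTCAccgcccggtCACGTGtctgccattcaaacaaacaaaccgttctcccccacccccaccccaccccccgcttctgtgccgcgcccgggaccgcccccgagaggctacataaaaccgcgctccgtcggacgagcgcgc

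Over the clock lists, 19 of 24 genes had a promoter in the table, and 6 of the 19 (31.6%) held an E-box, against 9.65% of the 10722 tested genes with a promoter and 6.86% of the 27025 in the table. Ciart, whose highest mean was at ZT10, holds 3 of them, the most of any clock gene, at 116, 58 and 44 bases before the start. Among the 21 of 27 dark-phase genes with a promoter, 2 (9.52%) held an E-box, against 9.65% of tested genes, and 3 (14.3%) a CRE, against 2.91%. A heat shock element, a ROR element and a D-box were each held by 1 (4.76%), against 6.17%, 0.513% and 0.793% of tested genes. The CREs were those of Dusp1, Rad51c and Slc25a25. Of the 8 light-phase genes with a promoter, none held any of the 5 motifs in this window, which describes only these letters in these bases.

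Genes of heat shock proteins, the chaperones that keep other proteins folded, gave mostly negative differences. Of 21 tested, 2 were called, both higher in dark, 18 had a negative difference and 14 of these had an unadjusted p under 0.05. Over all genes tested, 0.265% were called and 19.2% had such a p. The median over the list was -0.87 log2 units, against 0.003 over all genes, and 7 of the 21 differed among time points, against 2.11% of all genes. With DESeq2 in place of edgeR 12 members were called, as were 5.86% of all genes.

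Hspb1 (ENSMUSG00000004951.10, chr5:135887919-135889563, plus strand), a small heat shock protein that holds unfolded proteins in solution, lay at 6.01, 12.6 and 38.9 CPM in light and 26.1, 41.0 and 119 CPM in dark. The difference was -1.82 ± 0.21 (edgeR adjusted p = 0.00614). Its light libraries fell from 38.9 and 28.6 CPM at ZT2 to 6.01 and 7.14 CPM at ZT10, so that the overlap with dark came from ZT2. Words of 50 bases shared with annotated transcripts of other genes, mainly of the pseudogene Hsp25-ps1, made up 50.1% of its sequence, so part of its reads could have been counted elsewhere. Stip1, a co-chaperone that links Hsp70 and Hsp90, lay at 28.4, 33.4 and 43.7 CPM in light and 48.3, 61.1 and 118 CPM in dark with no overlap, a difference of -1.07 ± 0.18 (edgeR adjusted p = 0.0406). Both of its ZT18 libraries, at 111 and 118 CPM, stood above the other 10.

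ZT18 was also the hour of the highest mean for several chaperones that missed the threshold. Hspa8, the constitutive Hsp70, lay at 139, 293 and 930 CPM in light and 164, 1065 and 2505 CPM in dark (-1.33 ± 0.30, edgeR adjusted p = 0.0774). It shares 39.4% of its words with other genes. Its 2 libraries of ZT18 held 2505 and 1515 CPM, those of ZT22 only 262 and 164 CPM, and it differed among time points (edgeR adjusted p = 0.00825). Hsp90aa1, an Hsp90 that shares 47.5% of its words with pseudogenes, gave -1.66 ± 0.34, and Fkbp4 and Hsph1, which act with Hsp90 and Hsp70, gave -1.09 ± 0.22 and -1.61 ± 0.33, with an edgeR adjusted p of 0.0676 for each of these 3. Hspd1, the chaperone of the mitochondrial matrix, gave 0.24 ± 0.24 and was highest at ZT2.

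Of 16 heat shock promoters in the table, 7 (43.8%) held the heat shock element, against 6.17% of tested genes. Beside Hspb1 they were those of Dnaja1, Fkbp4, Hspa1a, Hspa1b, Hspd1 and Hspe1, so the list includes Hspd1, whose difference had the opposite sign. Hspd1 and Hspe1 hold their element in the same bases, read on opposite strands, and the promoters of Hspa1a and Hspa1b are nearly identical. Fewer than 7 elements are therefore independent.

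RNA-binding proteins known to rise in the cold had differences of the opposite sign that did not pass the test. All 5 tested had a positive difference, with a median of 0.61, 0 were called and 3 had an unadjusted p under 0.05, while DESeq2 called 1. By the same measures the shares of all genes were 0.265%, 19.2% and 5.86%. Cirbp lay at 16.2, 27.0 and 41.7 CPM in light and 6.19, 9.55 and 28.5 CPM in dark (1.10 ± 0.23, edgeR adjusted p = 0.0702). Its 4 libraries of ZT14 and ZT18 held 6.19 to 9.77 CPM and lay below the other 8, which held at least 16.2 CPM, and among time points its edgeR adjusted p was 0.0487. Rbm3 gave 0.22 ± 0.28 and was lowest at ZT18, with 9.41 and 9.68 CPM, beside 10.4 CPM in ZT10 replicate 1.

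**Figure D3:**
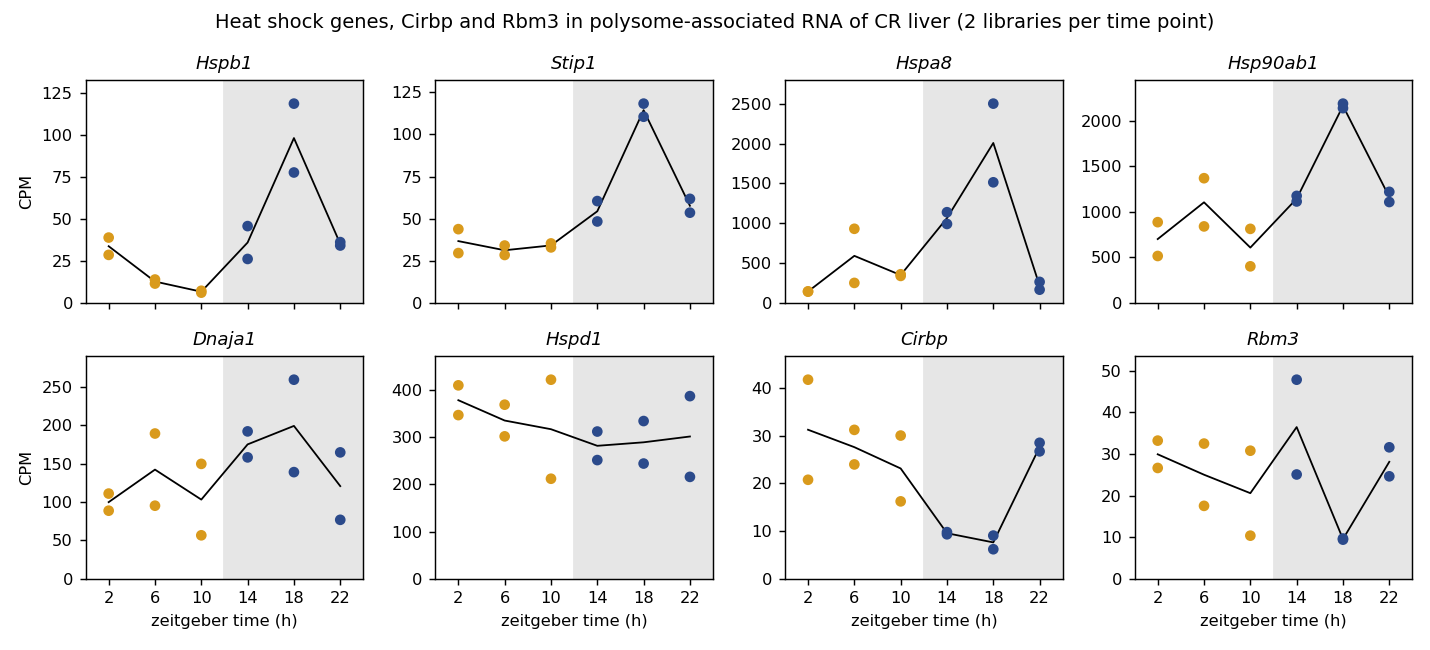
CPM (vertical axis, from 0) of 6 heat shock genes and of Cirbp and Rbm3 against zeitgeber time in hours, with 1 point per CR library (gold, light; blue, dark; dark phase shaded) and a line through the means of 2 libraries. Hspb1, Stip1, Hspa8 and Hsp90ab1 have their highest mean at ZT18, where Cirbp and Rbm3 have their lowest.

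Among genes of insulin and fasting signals, 1 was called in each direction. G0s2, an inhibitor of the fat lipase Pnpla2, lay at 15.8, 29.1 and 91.4 CPM in light and 65.3, 129 and 227 CPM in dark, a difference of -1.88 ± 0.27 (edgeR adjusted p = 0.0186). Only ZT6 replicate 2, at 91.4 CPM, reached the dark range, and ZT18 was highest with 226.7 and 227.4 CPM. Pnpla2 itself gave -0.06 ± 0.19. Arrdc3, an arrestin-like protein repressed by insulin, ran the other way at 15.9, 36.6 and 79.1 CPM in light and 8.26, 12.2 and 16.0 CPM in dark, a difference of 1.87 ± 0.33 (edgeR adjusted p = 0.0458). Its groups touched only at 15.9 CPM in ZT2 replicate 1. Of the 20 listed insulin and fasting signals these 2 were called, against 0.265% of all genes. Among time points 6 differed, against 2.11%, and the median difference between phases was 0.35, against 0.003.

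Dusp1, a phosphatase of MAP kinases that glucocorticoids induce, lay at 1.84, 3.88 and 10.5 CPM in light and 7.42, 10.4 and 35.7 CPM in dark, a difference of -1.61 ± 0.30 (edgeR adjusted p = 0.0472). It was the only glucocorticoid-responsive gene of 19 called between the phases, where 0.265% of all genes were called. Among time points 9 of the 19 differed, against 2.11% of all genes. The 9 were Per1, Tsc22d3, Dusp1, Tat, Pck1, Angptl4, Errfi1, Cebpb and Cebpd, and all of them but Per1 had their highest mean of log2 CPM at ZT14. Pck1, which encodes the rate-limiting enzyme of gluconeogenesis, stood at 1838 and 2538 CPM at ZT10 and 2159 and 2211 CPM at ZT14, against 221 and 224 CPM at ZT18, so both phases held low and high hours, with a light median of 922 CPM and a dark median of 374 CPM. Its difference between phases was 0.48 ± 0.29 (edgeR adjusted p = 0.378; among time points 0.00610).

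Fbxo21 (ENSMUSG00000032898.9, chr5:117976730-118010201, plus strand), a substrate receptor of a ubiquitin ligase, was the 1 called gene averaging 10 CPM or more (geometric mean of 12 libraries) that was higher in light with no overlap. It lay at 25.3, 43.7 and 86.7 CPM in light and 8.93, 19.3 and 20.7 CPM in dark, a difference of 1.44 ± 0.22 (edgeR adjusted p = 0.0244), and rose to 86.7 and 72.3 CPM at ZT10. In dark, 7 genes of that mean level were higher with no overlap, Cry1 and Stip1 among them. Crip2, a LIM domain protein, gave -1.21 ± 0.19, with at most 61.7 CPM in light and at least 65.4 CPM in dark (edgeR adjusted p = 0.0308). Usp39, a splicing factor, held 7.95, 8.63 and 9.42 CPM in light and 13.5, 18.2 and 21.9 CPM in dark, so its 6 light libraries were close together (-1.02 ± 0.18, edgeR adjusted p = 0.0406). Mrps6 and Mrpl34, proteins of the mitochondrial ribosome, gave -1.17 ± 0.21 and -1.05 ± 0.20, and Mif4gd, which binds the histone stem-loop binding protein, gave -0.89 ± 0.17, with edgeR adjusted p of 0.0470, 0.0472 and 0.0478. Mrps6 shares 17.3% of its words with Slc5a3 and another gene whose exons it overlaps.

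Further called genes, chosen after their values were seen, had overlapping phases. Lor, the skin protein loricrin, was found at 0.281, 0.590 and 1.82 CPM in light and 1.11, 3.17 and 13.9 CPM in dark (-2.68 ± 0.32, edgeR adjusted p = 0.00622), with 13.9 and 13.3 CPM in the ZT14 libraries alone. Trim14, an adaptor of antiviral signalling, lay at 0.600, 2.14 and 3.90 CPM in light and 0.0625, 0.209 and 2.07 CPM in dark (2.77 ± 0.51, edgeR adjusted p = 0.0470), and shares 33.9% of its words with genes it overlaps. Bcl9, a coactivator of β-catenin, lay at 0.520, 2.71 and 3.51 CPM in light and 0.137, 0.329 and 2.00 CPM in dark (2.30 ± 0.41, edgeR adjusted p = 0.0470). Erbb3, a receptor of neuregulins, and Ppm1k, the phosphatase that activates branched-chain amino acid breakdown, were higher in light by 1.27 ± 0.24 and 0.99 ± 0.17, with edgeR adjusted p of 0.0478 and 0.0406.

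All 80 tested genes of cytosolic ribosomal proteins had a negative difference, light minus dark, and none passed the test singly. The median was -0.87 log2 units, the range -1.37 (Rpl32) to -0.31, and 73 of the 80 had an unadjusted p under 0.05, while edgeR called 0 at the adjusted threshold and DESeq2 called 48, with 19.2% and 5.86% of all genes by the same measures. Rpl10 lay at 116, 143 and 160 CPM in light and 141, 308 and 446 CPM in dark (-0.96 ± 0.19, edgeR adjusted p = 0.0676). The ZT14 and ZT18 libraries, at 284 to 446 CPM, stood above the other 8, and those of ZT22, at 159 and 141 CPM, lay in the light range. The 2 libraries of ZT10 were far apart, with a median relative level of these genes of 0.06 in replicate 1 and -1.47 in replicate 2. Fits without ZT10 replicate 1, or without the 3 libraries of lowest ribosomal RNA share, leave replicate 2 alone at ZT10. Counts of called members from those fits are therefore not given. Rpl10, Rpl10a and Rpl29, 3 of the 80, differed among time points, against 2.11% of all genes, and all 3 were highest at ZT14. That count depended on the fit. It was 0 with the replicate number as a block and 48 with DESeq2, which also called fewer and more genes over all.

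Mitochondrial genes of nuclear origin had the same sign at a smaller size. Of 62 nuclear genes of the respiratory chain, 57 had a negative difference, 31 with an unadjusted p under 0.05 against 1 in the other direction. The median was -0.53, with 0 called by edgeR and 12 by DESeq2. For this and the next lists, the shares over all genes were 19.2% at such a p, 0.265% by edgeR and 5.86% by DESeq2. Of the 33 listed mitochondrial ribosomal protein genes, 30 had a negative difference, 1 was called (Mrps6) and the median was -0.41. Mrpl34, also called higher in dark, is not on that list. The 11 tested messenger RNAs of the mitochondrial genome gave a median of -0.13, with 0 called and 1 at an unadjusted p under 0.05. Translation factors gave a median of -0.23 over 42 genes, with 0 called by edgeR, 13 at an unadjusted p under 0.05 and 4 called by DESeq2.

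Transcript length moved with the phase in the same libraries. With protein-coding genes split into 5 groups of equal size by their longest annotated transcript, the median difference between light and dark ran -0.35, -0.11, 0.03, 0.15 and 0.41 log2 units from the shortest group to the longest. Without the ribosomal protein and respiratory chain lists the shortest group gave -0.33. Of the 80 cytosolic ribosomal protein genes, 66 were in the shortest group, as were 47 of 62 respiratory chain genes, 15 of 33 mitochondrial ribosomal protein genes and 3 of 21 heat shock genes.

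A length index was taken per library as the median relative level of the longest group minus that of the shortest. It was -0.08, 0.17 and 1.23 in light (lowest, median, highest) and -0.75, -0.42 and 0.36 in dark. The 2 libraries of ZT10 gave -0.08 and 1.23, and their ribosomal protein genes lay at 0.06 and -1.47 relative to the mean over all libraries. With this index as a covariate, added after seeing the data, the median of the cytosolic ribosomal protein genes was -0.15, that of the respiratory chain -0.06 and that of the mitochondrial ribosomal proteins -0.03, while that of the heat shock genes was -1.07. In that fit 12 genes were called, 6 in each direction, and 6 of the 39 were among them, including Nr1d1, Cry1, Nfil3, Hspb1 and Fbxo21. The cold-inducible list had a median of 0.06 in it. The index moves with the phase, and its short end holds most cytosolic ribosomal protein and respiratory chain genes. Index and phase therefore cannot be told apart in this fit.

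**Figure D4:**
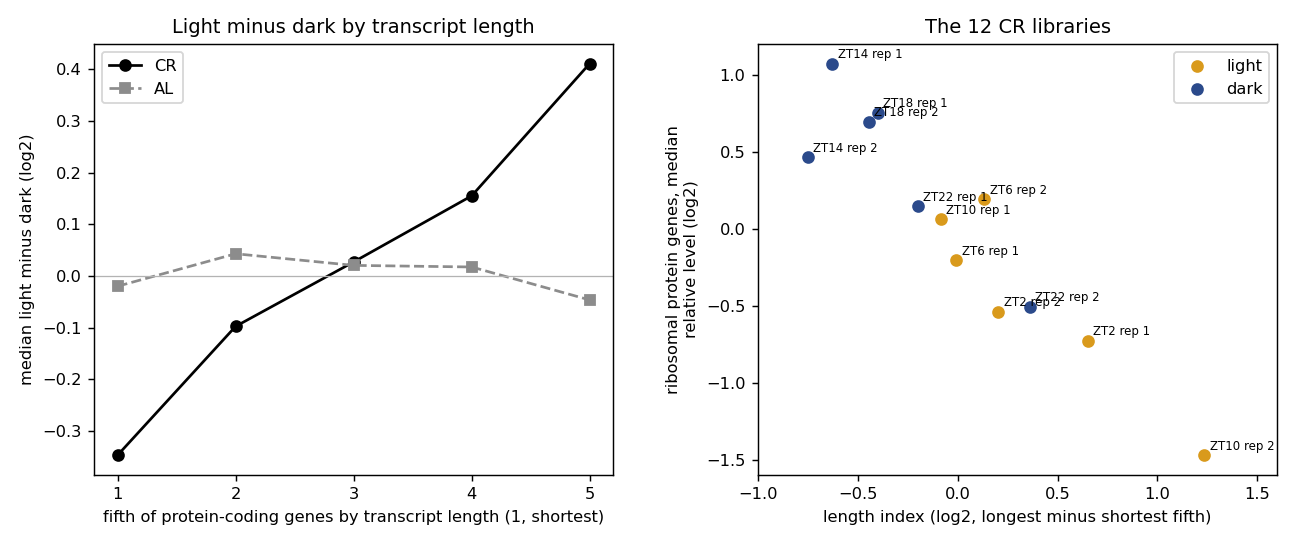
Left, median log2 difference between light and dark (vertical axis) over 5 groups of protein-coding genes by transcript length (1, shortest), for the CR libraries (black) and the AL libraries (grey), both from the fit of 24 libraries. Right, the 12 CR libraries (gold, light; blue, dark) by their length index and the median relative level of cytosolic ribosomal protein genes, both in log2 units; the CR line climbs from negative to positive, the AL line stays between -0.05 and 0.04, and the 2 ZT10 libraries lie far apart.

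The F-test among the 6 time points called 311 genes (2.11%), 32 of the 39 among them. Highest means fell on ZT18 for 105 of the 311 (33.8%), ZT14 for 78 (25.1%), ZT10 for 41, ZT22 for 41, ZT2 for 26 and ZT6 for 20. In the same order, the shares over all genes tested were 17.7%, 20.2%, 16.7%, 12.2%, 20.5% and 12.9%. At each hour the pair of largest rise over the other hours is described, among called genes averaging 10 CPM or more.

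At ZT10 these were Rgs16, which shortens signals of G protein-coupled receptors, and Upp2, a uridine phosphorylase. Rgs16 stood at 103 and 115 CPM at ZT10 and 2.25 and 1.42 CPM at ZT18, a rise of 3.42 log2 units over the mean of the other 5 time points. It was also called between the phases (2.29 ± 0.35, edgeR adjusted p = 0.0244). Upp2 stood at 540 and 392 CPM at ZT10, where the 10 other libraries held at most 241 CPM.

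At ZT14 they were Lpin1, a phosphatidate phosphatase and regulator of fat oxidation, and Slc25a25, a mitochondrial carrier of ATP-Mg and phosphate. Lpin1 stood at 355 and 734 CPM at ZT14 and at 21.7 and 27.8 CPM at ZT18, although both hours are dark, and its difference between phases was 0.22 ± 0.31 (edgeR adjusted p = 0.733; among time points 0.00223). Slc25a25, at 151 and 133 CPM at ZT14, was the highest of all hours there and was called between the phases (-1.36 ± 0.25, edgeR adjusted p = 0.0470), with 10.3 and 3.72 CPM at ZT2.

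From the end of the dark phase to the start of light, Slc41a2, a magnesium transporter, stood at 45.7 and 39.6 CPM at ZT22 and 50.5 and 26.1 CPM at ZT2, against 2.60 and 3.02 CPM at ZT14. Chka, choline kinase alpha, had the largest rise at ZT22 among genes of that level, with 112 and 55.2 CPM, and Rnf125, a ubiquitin ligase, had it at ZT2 with 159 and 82.6 CPM. Chka and Rnf125 lost their call among time points without ZT6 replicate 2 and ZT18 replicate 2 (edgeR adjusted p = 0.0542 and 0.0628).

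At ZT6 and ZT18 the leading genes were Serpina1e, a protease inhibitor, the major urinary protein Mup11 and the selenium-binding protein Selenbp2, all male-biased in mouse liver. The high values came from 2 libraries. Serpina1e stood at 1446 CPM in ZT6 replicate 2 and 1202 CPM in ZT18 replicate 2, against 127 and 121 CPM in the other libraries of those hours and 8.84 to 185 CPM in the remaining 8. Selenbp2 stood at 434 CPM in ZT18 replicate 2 and 25.8 CPM in replicate 1. Without these 2 libraries all 3 still differed among time points (edgeR adjusted p = 0.0217 for Serpina1e, 0.00640 for Mup11 and 0.00779 for Selenbp2). Of 25 male-biased genes 14 differed among time points with all libraries and 4 without these 2, while over all genes the count went from 311 (2.11%) to 106 (0.675%). Mup11 shares 77.8% of its words with other Mup genes, and its count is uncertain.

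The gene lists of metabolism below gave no calls between the phases, where only 0.265% of all genes were called. None of the 24 cholesterol synthesis genes, 22 of fatty acid and triglyceride synthesis, 35 of fatty acid oxidation and PPARα targets, 14 of gluconeogenesis, 20 of glucose use and glycogen, 35 of amino acid catabolism, 8 of the urea cycle or 15 of bile acid synthesis and transport passed edgeR's test, and their counts at an unadjusted p under 0.05 were 1, 8, 9, 2, 4, 3, 3 and 3, where the share over all genes was 19.2%. Among time points, in the same order, 1, 3, 2, 3, 4, 3, 0 and 1 members differed, against 2.11% of all genes. Medians of the light-dark difference in these lists lay between -0.26 (gluconeogenesis) and 0.18 (fatty acid and triglyceride synthesis). Plasma proteins, the main secreted load of hepatocytes, gave -0.07 over 26 genes with 0 called and 3 at an unadjusted p under 0.05. A difference within the spread of 2 libraries per hour was not detectable, so these counts do not show equal levels.

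**Figure D5:**
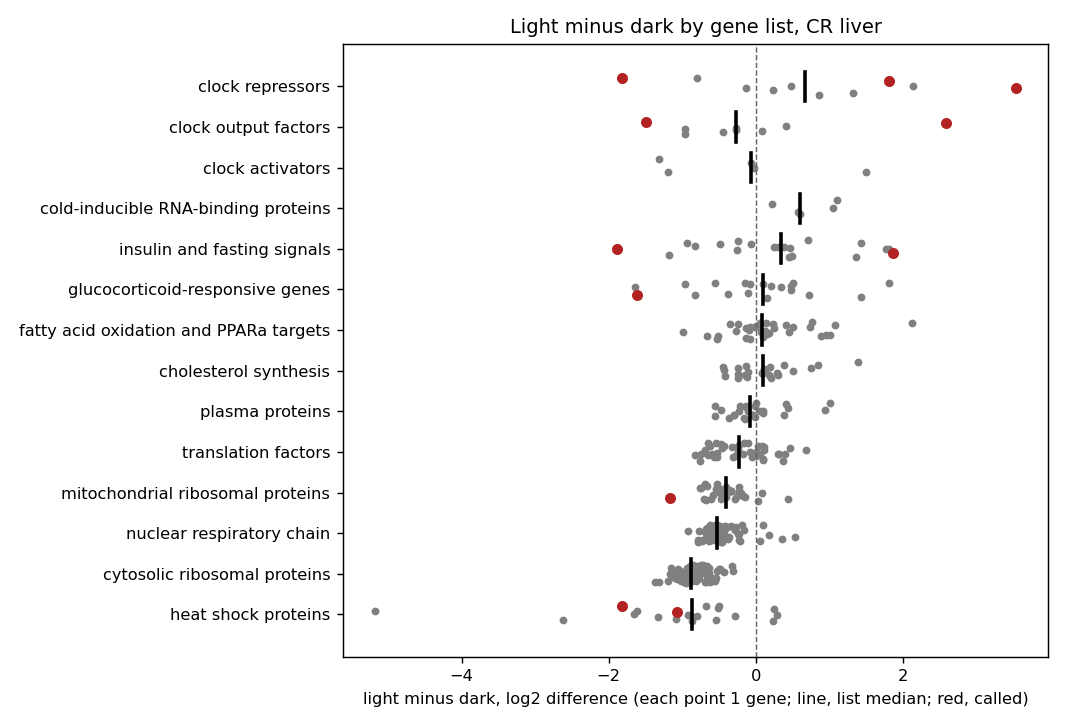
Log2 difference, light minus dark (horizontal axis), of each tested gene of 14 lists in the CR libraries; a point is a gene, red points are genes called at an adjusted p under 0.05 and black bars are list medians. The heat shock and cytosolic ribosomal protein lists have medians of -0.87, and the clock lists have members far to both sides.

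Whether the difference between light and dark itself depends on diet was asked with all 24 libraries in 1 fit. No gene of 15490 tested (0%) passed edgeR's test of that difference, 2260 had an unadjusted p under 0.05, and DESeq2 called 260. The count rose from 0 to 888 without CR ZT10 replicate 1, to 45 without AL ZT6 replicate 2, and to at most 9 without any other single library. Within that fit the AL libraries gave 19 genes between light and dark and the CR libraries 434, which is more than in the fit of the CR libraries alone.

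Nr1d1 was called in both diets in this fit. In AL it lay at 6.37, 9.37 and 15.4 CPM in light and 0.172, 0.574 and 2.72 CPM in dark, a difference of 3.74 ± 0.37 (edgeR adjusted p = 2.1e-05), and CR minus AL was -0.19 ± 0.50 (edgeR adjusted p = 0.923). Cry1 gave -1.42 ± 0.26 in AL (edgeR adjusted p = 0.0393), and CR minus AL was -0.39 ± 0.36 (edgeR adjusted p = 0.645).

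Other clock genes had larger gaps between the diets that did not pass. Dbp gave 2.60 ± 0.47 in CR and -0.27 ± 0.44 in AL in this fit, and the gap of 2.87 ± 0.64 had an edgeR adjusted p of 0.171. In AL its lowest, median and highest values were 0.102, 1.55 and 52.0 CPM in light and 1.02, 2.84 and 21.4 CPM in dark, so both phases held low and high hours. The smallest adjusted p of any gene was that of Trim14, at 2.78 ± 0.54 in CR and -1.33 ± 0.48 in AL (edgeR adjusted p of the gap 0.110).

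Of the 39 genes called in CR, 33 had the same sign in AL, and the median size was 1.49 in CR and 0.68 in AL. In AL 3 of them were called (Nr1d1, Cry1 and 2210011C24Rik), beside 19 of all 15490 genes tested. The 39 were chosen on the CR libraries, so their smaller size in AL is no test. Heat shock genes had a negative difference in 21 of 21 cases in AL, with a median of -0.54, and cytosolic ribosomal protein genes in 78 of 80, with a median of -0.63. In the AL libraries the 5 groups of transcript length gave -0.02, 0.04, 0.02, 0.02 and -0.05 from shortest to longest.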

How the data were processed

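The deposited files hold raw counts per gene, which the authors made with HTSeq on genome build GRCm38.p5, per the submitters' processing notes. FastQC and DESeq2 are also named there, without versions, and an aligner is not given in the sources used here. Per the labels, RNA was poly(A)-selected and libraries are not stranded, so overlapping genes cannot be separated by strand. Each file lists 52636 genes, of which 52403 received a symbol from GENCODE vM21, and has no HTSeq summary lines.

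Counts of the 12 CR libraries were tested with edgeR 4.0.16 in R 4.3.3 (TMM, filterByExpr by time point, a mean per time point, quasi-likelihood tests, Benjamini-Hochberg adjustment at 0.05). Light against dark was the contrast of the mean of 3 time points with that of the other 3, with 6 residual degrees of freedom, beside an F-test among time points and, over 24 libraries, a test of the difference between diets. CPM use TMM library sizes. Depth of 16.5 to 60.8 M counts, with 7.04 to 59.6 M outside 363 features that collect ribosomal RNA, sets the counting precision. Of the tested genes, 752 had no counts at a time point, of which none was called between light and dark and 39 were called among time points.

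Members and the 46 gene lists were chosen with earlier results of these data known, and lists got counts and medians, no set test. Named were called genes of at least 10 CPM whose phases did not overlap, all clock genes, called members of discussed lists, and per time point the 2 genes of largest rise among called genes of at least 10 CPM. Alternatives were DESeq2 1.42.0, RLE size factors, other filters, no time point term, sums per time point, ZT6 against ZT18, 24 libraries in 1 fit, a replicate block, a ribosomal RNA covariate, and libraries left out. The procedures were tested on simulated data. Shared words of 50 bases and longest transcripts came from GENCODE vM21. Values of 2 genes are not reported here.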

Additional observations from a re-analysis of the deposited data

Results flagged for a closer look

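Among 142 groups of 6 libraries examined, 4 had 1 library farther from the rest than Dixon's test allows at 95%, and chance flags about 1 in 20. Cry1 stood at 18.8 CPM in CR ZT2 replicate 1, against 4.68 to 7.62 CPM in the other 5 light libraries. Bhlhe41, a clock repressor, stood at 0.739 CPM in CR ZT18 replicate 2, against 0 to 0.188 CPM in the other 5 dark libraries. Features that collect ribosomal RNA took 2.42% of the reads in CR ZT10 replicate 1, against 44.7% to 62.1% in the other 5 light libraries. Male-biased genes had a median relative level of 3.46 log2 units in CR ZT18 replicate 2, against -1.54 to 0.14 in the other 5 dark libraries.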

How the results depend on the processing

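All 39 genes kept their direction under every alternative in which they were tested, and the count of calls was far less stable. Light against dark gave 864 calls with DESeq2 (431 higher in light, 433 higher in dark), 1105 with no low-count filter (673 and 432), 434 with 24 libraries in 1 fit (224 and 210), 1211 without the 3 libraries of lowest ribosomal RNA share (566 and 645) and 247 without ZT10 (141 and 106). It gave 11 without CR ZT6 2 and CR ZT18 2 (5 and 6), 12 with the length index as a covariate (6 and 6), 2 at ZT6 against ZT18 only (1 and 1), and 0 both with libraries as replicates of a phase and with counts summed per time point. RLE size factors gave 37 calls, leaving out ribosomal RNA features 38, a filter of 1 CPM in 6 libraries 29 and a ribosomal RNA covariate 53.

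Leaving out 1 library gave 3 (without CR ZT14 replicate 2) to 2598 calls (without CR ZT10 replicate 1), 1 to 1142 higher in light and 2 to 1456 higher in dark. The others gave 4 without CR ZT14 replicate 1, 4 without CR ZT18 replicate 1, 7 without CR ZT2 replicate 2, 9 without CR ZT18 replicate 2, 10 without CR ZT2 replicate 1, 10 without CR ZT22 replicate 1, 67 without CR ZT6 replicate 1, 72 without CR ZT22 replicate 2 and 105 without CR ZT10 replicate 2. Without CR ZT6 replicate 2 there were 43. These fits test more genes, since the filter then asks for counts in fewer libraries. The cause of the changes was not tested.

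Among time points the count of 311 became 2036 with DESeq2, 2492 with no filter, 1070 with 24 libraries, 1311 with the ribosomal RNA covariate, 873 with the length index, 2519 without the 3 libraries of lowest ribosomal RNA share, 1578 without ZT10, 106 without CR ZT6 2 and CR ZT18 2, and 119 to 2898 without 1 library. The difference between diets gave 260 calls with DESeq2, 526 with no filter and 0 to 888 without 1 library.

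The replicate number as a replicate block gave 28 calls between light and dark (10 and 18), 24 of them among the 39, and 223 among time points; for the difference between diets it gave 1, without the AL ZT22 libraries, whose numbers are not 1 and 2. The labels do not say whether libraries of 1 number belong together. Differences between replicates 1 and 2 correlated above 0.1 in 3 of 15 pairs of time points and below -0.1 in 7. The range was -0.46 to 0.72, which cannot decide the question. The length index, the fit without the 3 libraries and the fit without ZT10 were chosen after seeing the data.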
